A study of Mus musculus with 10 samples.

Results

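Transcripts of 10 genes that carry fatty acids into liver cells or bind them there were followed in mouse liver: the membrane receptor Cd36, the fatty acid transport proteins Slc27a2, Slc27a4 and Slc27a5, the lipoprotein receptor Vldlr, the intracellular binding proteins Fabp1, Fabp2, Fabp4 and Fabp5, and the lipase Lpl. They were taken by gene symbol, 1 probe set a gene (the brightest), and all 10 were found among 22180 genes with a symbol of their own on the array, an Affymetrix Mouse Gene 2.1 ST. The 4 groups were fasted Pml KO (3 arrays), fed Pml KO (2), fasted Pml wt (3) and fed Pml wt (2). Fasted mice had been without food for 6 h and fed mice ate ad libitum. All were female BALB/cByJ mice aged 3 months with free access to water. Pml encodes the protein that builds PML nuclear bodies; the KO allele was not described further in the labels, which do not say either whether each array is a separate animal.

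Long-chain fatty acids reach hepatocytes as albumin-bound free fatty acids or, after hydrolysis by lipoprotein lipase, from circulating triglyceride. CD36 and the FATP proteins of the Slc27a family take them up at the plasma membrane, the FATPs also activating them to acyl-CoA, and the small FABP proteins carry them through the cytosol to mitochondria, peroxisomes and the nucleus. During fasting adipose tissue releases fatty acids and the liver oxidises them. The nuclear receptor PPARα, which binds fatty acids and pairs with RXR on repeated AGGTCA half-sites, is a textbook activator of several of these genes.

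Levels are given as log2 intensities and differences on the same log2 scale, each with its standard error (SE) from a limma fit. Adjusted p values cover the 13942 genes tested, and those under 0.05 were called. All 10 genes passed the filter on dim probe sets, and each lay above the array median on all 10 arrays. Array medians lay between 43.5 and 47.5 intensity units. Pml was lower in KO arrays, between 6.05 and 6.91, against 7.50 to 8.37 in wt arrays (difference -1.61, two-sided exact permutation test over 252 divisions, p = 0.00794, the smallest it can give). All 10 hepatocyte markers lay above the array median on every array. Of 5 adipocyte markers with a row, 1 did on every array, and Lep and Retn did on none. The clock genes set arrays of 1 group apart. Arntl minus Dbp was -5.45, -5.27 and 2.87 in fasted KO replicates 1, 2 and 3, -4.16 and -4.0 in fed KO, between 2.46 and 3.22 in fasted wt, and -2.0 and -2.48 in fed wt. Fasted KO replicate 3 thus resembled fasted wt in these genes and replicates 1 and 2 resembled fed KO, and within wt the clock genes and food removal cannot be told apart. Inside groups, Arntl minus Dbp varied widely only in fasted KO. A fit with it as a covariate takes its adjustment, also for wt, mainly from fasted KO replicate 3 against replicates 1 and 2.

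Fasted and fed arrays did not overlap, in either direction, for 36.8% of all genes in KO and 52.7% in wt. The share of all genes with fasted above fed arrays in both genotypes was not counted. Cd36, Fabp1 and Slc27a2 were the members whose fasted arrays all lay above the fed arrays in both genotypes. Their promoter windows, 250 bases before to 50 after the start in RefSeq (GRCm38.p6), are shown for that reason, with AGGTCA half-sites on either strand in capitals. They lie at chr5:17835847-17836146 (minus strand), chr6:71199629-71199928 (plus strand) and chr2:126552774-126553073 (plus strand).
Cd36: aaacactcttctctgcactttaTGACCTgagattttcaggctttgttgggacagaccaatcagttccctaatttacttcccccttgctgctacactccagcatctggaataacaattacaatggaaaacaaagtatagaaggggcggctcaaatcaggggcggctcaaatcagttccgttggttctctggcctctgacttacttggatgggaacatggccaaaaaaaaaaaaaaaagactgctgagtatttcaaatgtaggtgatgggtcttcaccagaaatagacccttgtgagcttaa
Fabp1: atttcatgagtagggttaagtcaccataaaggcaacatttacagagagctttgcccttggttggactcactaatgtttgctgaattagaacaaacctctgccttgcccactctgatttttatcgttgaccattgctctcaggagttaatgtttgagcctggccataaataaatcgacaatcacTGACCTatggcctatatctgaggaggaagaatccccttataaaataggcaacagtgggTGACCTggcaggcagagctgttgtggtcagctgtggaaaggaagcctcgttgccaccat
Slc27a2: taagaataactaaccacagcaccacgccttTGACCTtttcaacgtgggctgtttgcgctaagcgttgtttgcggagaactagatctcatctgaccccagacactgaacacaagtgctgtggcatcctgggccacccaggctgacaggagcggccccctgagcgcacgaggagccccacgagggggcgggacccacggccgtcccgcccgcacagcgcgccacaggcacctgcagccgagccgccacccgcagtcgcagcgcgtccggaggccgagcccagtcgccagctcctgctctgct
Each of these windows held the half-site, read as TGACCT on the strand shown, at positions -228 in Cd36, -67 and -9 in Fabp1 and -220 in Slc27a2. The table of windows covered 6 of the 10 members in 7 windows, of which 3 held it, as did 16.3% of 32851 windows of 300 bases. Fabp1 was the member with TATAAA (at -30), which 13.6% of windows held. The E-box CACGTG was in 0 of the 7 windows and in 7.15% of all. None of these matches overlapped another. A match is a description of the letters, not a bound site.

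**Figure D1:**
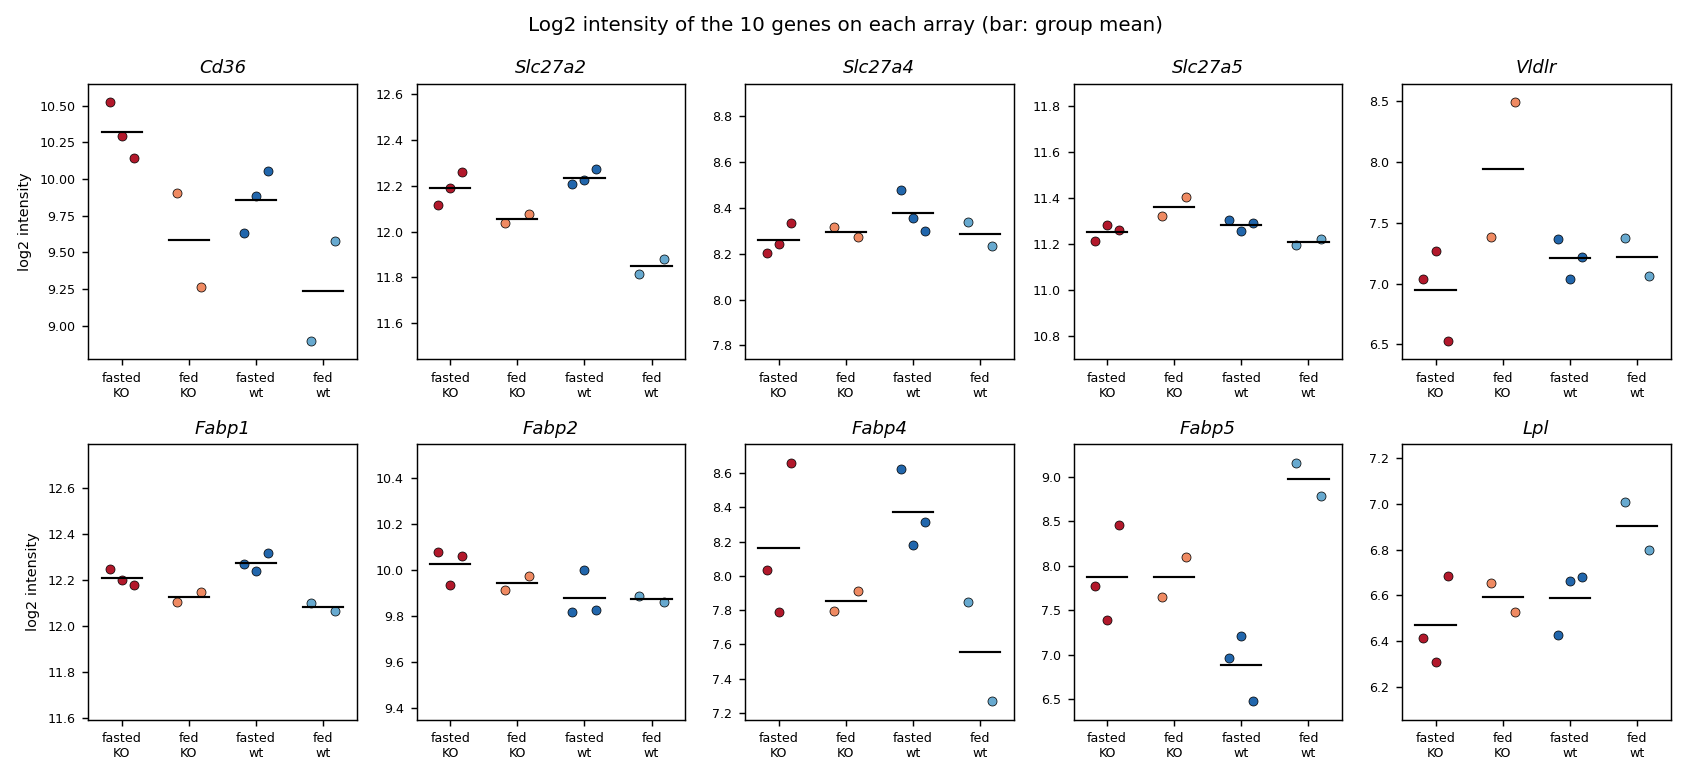
Log2 intensity (y axis) of the 10 genes on each array, in 4 groups along the x axis; points are arrays (3 fasted and 2 fed per genotype) and bars are group means, and each panel has its own axis. Fabp5 has its lowest values in fasted wt (6.47 to 7.21) and its highest in fed wt (8.79 and 9.16), with KO arrays between.

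The first question was how these genes differed between fasted and fed arrays in KO liver and in wt liver. In KO liver 0 of the 10 genes were called by limma, against 1.68% of all genes; 2 had an unadjusted p under 0.05, Cd36 and Vldlr. In wt liver 2 of 10 were called, against 21.4% of all genes. Slc27a2 was the 1 called higher (8.23% of all genes were) and Fabp5 the 1 called lower (13.2% were). The median difference of the 10 genes was 0.04 in KO and 0.08 in wt, beside 0.01 and -0.02 for all genes. Fasted and fed arrays did not overlap for 5 of 10 genes in KO, where 36.8% of all genes did so, and for 7 of 10 in wt, where 52.7% did.

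Fabp5, the epidermal-type fatty acid binding protein that is also present in macrophages and endothelium, had the largest wt fasting response of the 10. Its log2 intensity was 7.77, 7.39 and 8.46 in fasted KO against 7.65 and 8.10 in fed KO, and 6.96, 7.21 and 6.47 in fasted wt against 9.16 and 8.79 in fed wt. The KO groups overlapped, and in wt every fasted array lay below every fed array. Fabp5 was 4.26-fold lower in fasted than in fed wt (log2 difference -2.09, SE 0.31, adjusted p = 0.00210, limma), lower in 3 of 3 fasted arrays. In KO the difference was -0.01 (95% interval -0.71 to 0.69, adjusted p = 0.993). Without fasted KO replicates 1 and 2, whose clock genes stood apart from replicate 3, it was 0.58, with 1 fasted KO array left.

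The wt call of Fabp5 held under all 23 alternatives, with a difference between -2.63 and -1.68 and an adjusted p between 0.000946 and 0.0228. With Arntl minus Dbp as a covariate it was -2.63 (adjusted p = 0.00423), an adjustment that rests mainly on the fasted KO arrays. Of 8 macrophage markers, Adgre1 (-0.57) and Csf1r (-0.35) were called lower in fasted wt, where 13.2% of all genes were. The others had differences between -0.52 (Cd5l) and 0.05 (Marco), and the median of the 8 was -0.27. The summed intensity of the 8 was 3019 to 3200 in fasted wt against 3298 to 4029 in fed wt, and 3649 to 4172 in fasted KO against 3466 to 3748 in fed KO. Their part in the result was not tested, and fewer cells of a type and less RNA per cell cannot be told apart in whole liver.

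Fabp5 was measured by 4 probe sets, and in the 3 that lay above the array median on 9 or 10 arrays fasted wt had the lowest and fed wt the highest group mean. Probe set 17548717 nearly coincided with 17548238, used above, with 7.76, 7.33 and 8.41 in fasted KO against 7.59 and 8.05 in fed KO, and 6.91, 7.18 and 6.41 in fasted wt against 9.11 and 8.77 in fed wt. The dimmer probe set 17396056 had 6.12, 5.77 and 6.91 in fasted KO against 6.17 and 6.51 in fed KO, and 5.63, 5.90 and 5.09 in fasted wt against 7.27 and 7.16 in fed wt. Its wt difference was -1.68 (SE 0.32, adjusted p = 0.00643). Probe set 17404073 lay below the array median on all 10 arrays, so it holds only a bound. RefSeq lists a Fabp5 pseudogene, Fabp5l2, and whether these probe sets also take up signal of such a copy was not tested.

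**Figure D2:**
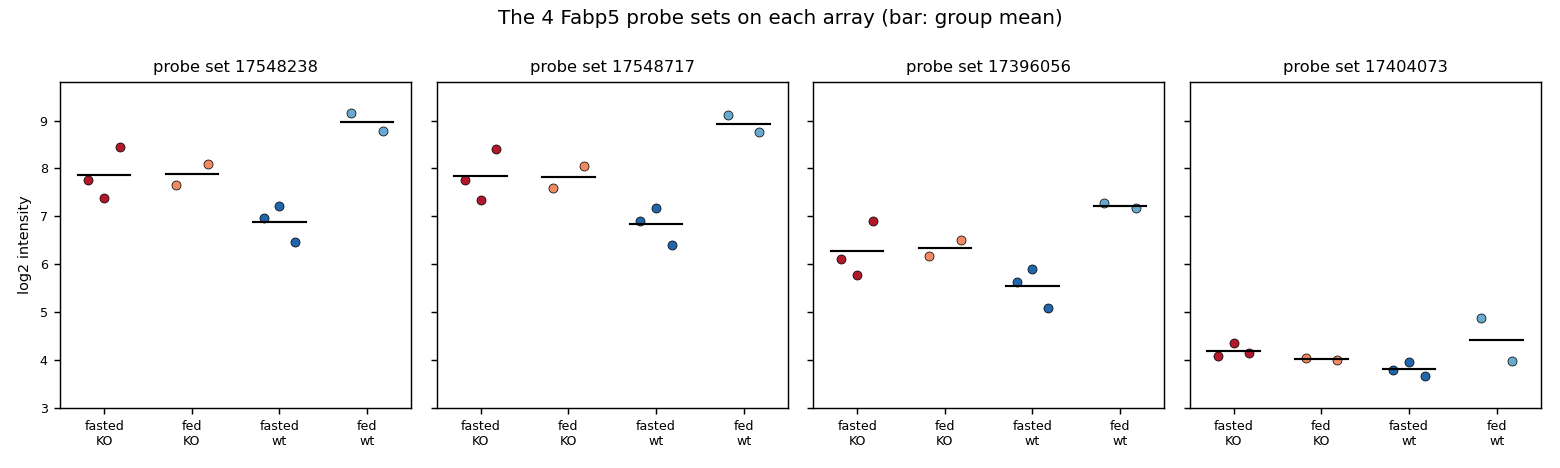
Log2 intensity (y axis, shared) of the 4 Fabp5 probe sets on each array by group; points are arrays and bars are group means. The brightest pair nearly coincide, the third has the wt groups at the same ends at lower intensity, and the fourth stays at 4.87 or less on every array.

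In wt the uptake proteins responded less than Fabp5. Slc27a2 (FATP2), a transporter and very long-chain acyl-CoA synthetase of hepatocytes, had 12.12, 12.19 and 12.26 in fasted KO against 12.04 and 12.07 in fed KO. In wt it had 12.21, 12.23 and 12.27 in fasted against 11.81 and 11.88 in fed arrays. No fasted array overlapped a fed array in either genotype. Slc27a2 was 1.31-fold higher in fasted than in fed wt (difference 0.39, SE 0.09, adjusted p = 0.0184, limma), higher in 3 of 3 fasted arrays. In KO the difference was 0.13 (95% interval -0.08 to 0.35, adjusted p = 0.479). A second, dimmer probe set gave 0.63 in wt (SE 0.13, adjusted p = 0.00785) and 0.23 in KO (adjusted p = 0.357). The wt call was lost without fasted wt replicate 3 (0.37, adjusted p = 0.0566), fed wt replicate 1 (0.35, adjusted p = 0.117) or fed wt replicate 2 (0.42, adjusted p = 0.0579). Centring ended it too, with each array centred on its median (0.34, adjusted p = 0.0579), as did Arntl minus Dbp as a covariate (0.33, adjusted p = 0.128).

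Cd36, the scavenger receptor and fatty acid translocase, had 10.52, 10.29 and 10.14 in fasted KO against 9.91 and 9.26 in fed KO. In wt it had 9.63, 9.88 and 10.05 in fasted against 8.90 and 9.57 in fed arrays. All fasted arrays lay above the fed arrays of their genotype, and the fed arrays of each genotype lay well apart from each other. The difference was 0.73 in KO (SE 0.24, adjusted p = 0.15) and 0.62 in wt (SE 0.24, adjusted p = 0.101), neither of them called. Without fed wt replicate 2 the wt difference was 0.96 and was called (adjusted p = 0.0457), and without fed wt replicate 1 it was 0.28 (adjusted p = 0.566). In KO it was 0.41 without fed KO replicate 2 and 1.06 without fed KO replicate 1.

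The other transport proteins stayed within narrow ranges. Slc27a4 (FATP4) lay between 8.20 and 8.48 over all arrays, with a difference of -0.04 in KO (95% interval -0.26 to 0.19) and 0.09 in wt (-0.14 to 0.32). Slc27a5 (FATP5), which also activates bile acids in the liver, had 11.21, 11.28 and 11.26 in fasted KO against 11.32 and 11.40 in fed KO, and 11.30, 11.26 and 11.29 in fasted wt against 11.19 and 11.22 in fed wt. Its arrays were thus lower in fasted than fed KO and higher in fasted than fed wt, without overlap. The differences were -0.11 (adjusted p = 0.546) and 0.08 (adjusted p = 0.594).

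Vldlr, the receptor that takes up triglyceride-rich lipoproteins, had 7.04, 7.27 and 6.53 in fasted KO against 7.38 and 8.49 in fed KO. In wt it had 7.36, 7.04 and 7.22 in fasted against 7.37 and 7.06 in fed arrays, which overlapped. The KO difference was -0.99 (SE 0.31, adjusted p = 0.128), and without fed KO replicate 2, the array at 8.49, it was -0.44 (adjusted p = 0.585); without fed KO replicate 1 it was -1.54 (adjusted p = 0.0643). In wt it was -0.01 (95% interval -0.69 to 0.68). The size of the Vldlr difference in KO thus depended on which fed array was kept.

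Among the binding proteins, Fabp1, the liver type, had 12.25, 12.20 and 12.18 in fasted KO against 12.10 and 12.15 in fed KO, and 12.27, 12.24 and 12.32 in fasted wt against 12.10 and 12.06 in fed wt. The differences were 0.08 (SE 0.09, adjusted p = 0.665) and 0.19 (SE 0.09, adjusted p = 0.159). Every fasted array lay above the fed ones of its genotype, by little. With trend and robust moderation the wt difference was called (adjusted p = 0.0225). Fabp2, the intestinal type, lay between 9.82 and 10.08 on all arrays, with differences of 0.08 in KO (95% interval -0.15 to 0.31) and 0.01 in wt (-0.23 to 0.24). Of 5 intestinal epithelium markers, 4 were above the array median on no array.

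Fabp4, the adipocyte type, which capillary endothelium and macrophages also make, had 8.03, 7.79 and 8.66 in fasted KO against 7.79 and 7.91 in fed KO, which overlapped. In wt it had 8.62, 8.18 and 8.31 in fasted against 7.85 and 7.27 in fed arrays, which did not. The differences were 0.31 (SE 0.26, adjusted p = 0.554) and 0.81 (SE 0.26, adjusted p = 0.0503), so that wt missed the threshold narrowly. It was called under 8 of the alternatives, among them quantile normalization (0.87, adjusted p = 0.0310) and the fit without fasted KO replicates 1 and 2 (0.81, adjusted p = 0.0260). Without fed wt replicate 2 it was 0.52 (adjusted p = 0.283), and with Arntl minus Dbp as a covariate 0.33 (adjusted p = 0.389). The summed adipocyte markers were 178 to 189 in fasted wt against 176 to 192 in fed wt. Of these 5 dim markers 1 lay above the array median on every array and 2 on none, so the sums can hardly show a shift. The endothelial marker Pecam1 rose by 0.45 in fasted wt (adjusted p = 0.0271), 1 of 7 endothelial markers called there, where 8.23% of all genes were called higher. The other 6 were not called and had differences between -0.10 (Cdh5) and 1.23 (Lyve1), and the median of the 7 was 0.06. The part of endothelial cells in Fabp4 was not tested.

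Lpl, the lipase that frees fatty acids from lipoprotein triglyceride and is made in adult liver mostly outside hepatocytes, had 6.42, 6.31 and 6.68 in fasted KO against 6.65 and 6.53 in fed KO, which overlapped. In wt it had 6.43, 6.66 and 6.68 in fasted against 7.01 and 6.80 in fed arrays, which did not. The differences were -0.12 (SE 0.14, adjusted p = 0.684) and -0.31 (SE 0.14, adjusted p = 0.146). A second Lpl probe set lay above the array median on 2 of 10 arrays and gave -0.11 in wt (adjusted p = 0.664).

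**Figure D3:**
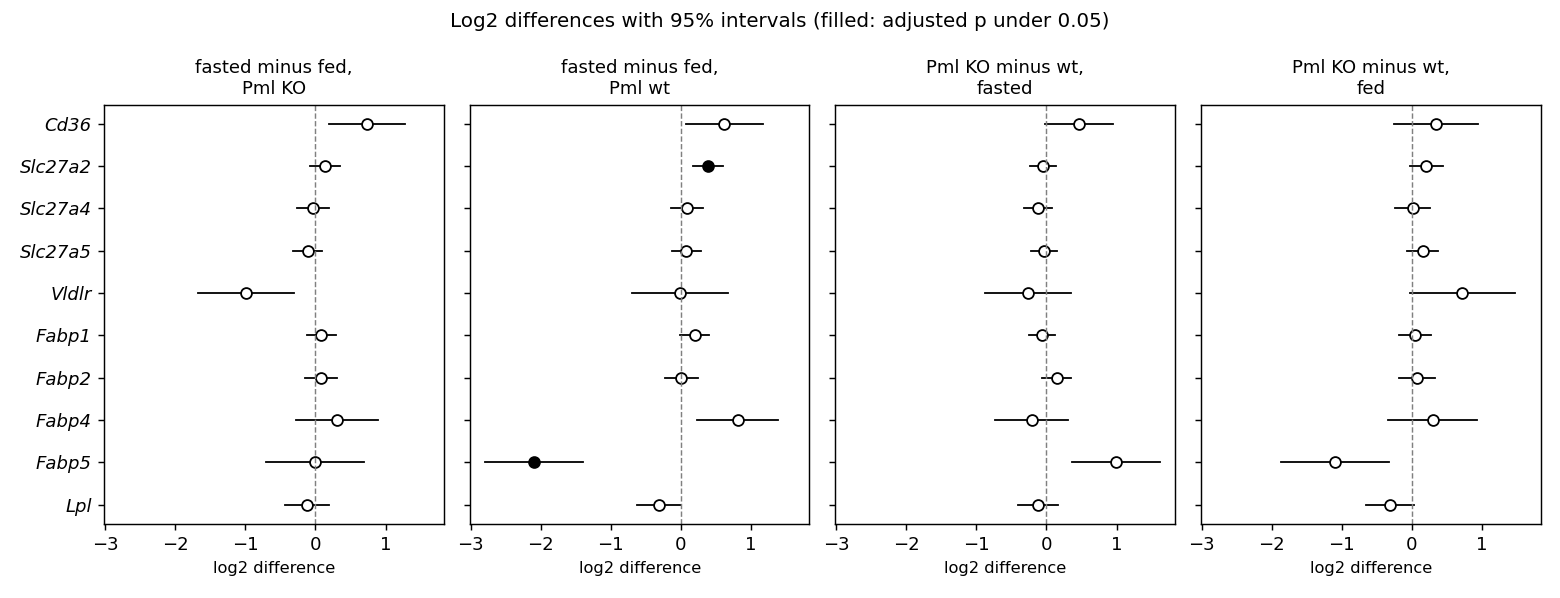
Log2 differences (x axis) of the 10 genes (rows) with 95% intervals for fasted minus fed in KO and in wt and for KO minus wt in fasted and in fed liver; filled points were called at an adjusted p under 0.05. The filled points are Slc27a2 (0.39) and Fabp5 (-2.09) in wt fasting.

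The second question was what loss of Pml changed in each feeding state. In fasted liver 0 of the 10 genes were called by limma, where 11.1% of all genes were, and 1 had an unadjusted p under 0.05. Cd36 and Fabp5 were the 2 of 10 whose KO and wt arrays did not overlap, beside 33.0% of all genes. Fabp5 was 1.98-fold higher in fasted KO (7.87 ± 0.54, SD, n = 3) than in fasted wt (6.88 ± 0.38, SD, n = 3), a difference of 0.99 (SE 0.28) whose adjusted p of 0.0505 missed the threshold. It passed without fasted KO replicate 2 (1.23, adjusted p = 0.0334), with quantile normalization (1.01, adjusted p = 0.0438), with a stricter filter (adjusted p = 0.0346) and with probe set 17548717 (1.00, adjusted p = 0.0495). It was smaller without fasted KO replicate 3 (0.70, adjusted p = 0.0985) and without fasted wt replicate 3 (0.78, adjusted p = 0.156), and with no filter its adjusted p was 0.109. Without fasted KO replicates 1 and 2, with 1 fasted KO array left, it was 1.57. In this comparison 4 of 8 macrophage markers were called higher in KO, where 6.68% of all genes were. They were Adgre1 (0.54), Cd5l (0.65), Csf1r (0.38) and Cd68 (0.36). The other markers lay between -0.03 (Marco) and 0.52 (Timd4), with Clec4f at -0.02. What part this had in Fabp5 was not tested. Cd36 was 10.32 ± 0.19 in fasted KO and 9.86 ± 0.21 in fasted wt (SD, n = 3 each; difference 0.46, SE 0.22, adjusted p = 0.197). The other 8 genes differed by between -0.26 (Vldlr) and 0.14 (Fabp2).

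In fed liver 0 of the 10 genes were called by limma, where 0.0861% of all genes were, and 1, Fabp5, had an unadjusted p under 0.05. KO and wt arrays did not overlap for 7 of 10 genes, beside 39.9% of all genes, with 2 arrays a group. Fabp5 was 7.88 ± 0.32 in fed KO and 8.97 ± 0.26 in fed wt (SD, n = 2 each; difference -1.10, SE 0.34, adjusted p = 0.373). Vldlr was 7.94 ± 0.78 in fed KO and 7.22 ± 0.22 in fed wt (difference 0.72, SE 0.34, adjusted p = 0.597). Lpl differed by -0.31, Cd36 by 0.35, Fabp4 by 0.29, Slc27a2 by 0.21 and Slc27a5 by 0.15, and Fabp1, Fabp2 and Slc27a4 by less than 0.1, none of them called. With 2 arrays a group the 95% intervals of the differences reached up to 0.27 for Fabp1, 0.44 for Slc27a2 and 0.95 for Cd36.

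The third question was whether the fasting response differed between KO and wt. For 1 of the 10 genes it did by the interaction term of the fit, where 2.11% of all genes were called. The fasting difference of Fabp5 was -0.01 in KO and -2.09 in wt, an interaction of 2.08 (SE 0.44, 95% interval 1.10 to 3.07, adjusted p = 0.0472, limma). The order of its group means was fed wt (8.97), fed KO (7.88), fasted KO (7.87) and fasted wt (6.88). The KO groups did not differ beyond their spread, and the arrays of fed wt above them and of fasted wt below them did not overlap with KO. In probe set 17396056 fasted wt replicate 2 (5.90) lay above fasted KO replicate 2 (5.77), so fasted wt and KO overlapped there. The call stood close to the threshold. It was lost on omission of any 1 of 8 arrays, with an interaction between 1.86 and 2.31 and an adjusted p between 0.0690 and 0.152; the omissions that kept it were those of fasted KO replicate 2 and fasted KO replicate 3. Without fasted KO replicates 1 and 2 together, with 1 fasted KO array left, the interaction was 2.67. With Arntl minus Dbp as a covariate it was 2.46 (adjusted p = 0.0478), and with probe set 17396056 it was 1.60 (adjusted p = 0.101). The interaction was positive under all 22 alternatives and called under 9 of them. Fasted KO replicate 3, whose clock genes resembled fasted wt, had the highest Fabp5 of the fasted KO arrays (8.46).

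The other 9 genes had interactions between -0.98 and 0.19, none called. Vldlr had -0.98 (SE 0.43, adjusted p = 0.244), Fabp4 -0.50 (SE 0.37, adjusted p = 0.474) and Slc27a2 -0.25 (95% interval -0.55 to 0.05, adjusted p = 0.323). Slc27a2 was called in wt and not in KO, and its responses were not shown to differ. For Cd36 the interaction was 0.11 with a 95% interval of -0.66 to 0.89, which leaves room for a sizeable difference in either direction.

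The profiles most like those of the called members were found by the root mean square difference of centred log2 values over the 10 arrays. For Fabp5, whose arrays span 2.68 log2 units, they were Cenpq (0.34) and Mmab (0.35). Mmab, an enzyme of cobalamin metabolism, had 6.73, 6.73 and 7.13 in fasted KO against 7.20 and 7.29 in fed KO, and 6.33, 5.94 and 6.25 in fasted wt against 8.04 and 8.27 in fed wt. Cenpq, a kinetochore protein, was dim: it lay above the array median on 3 of 10 arrays, all of them fed, and between 3.78 and 6.27 over all arrays. For Slc27a2, which spans 0.46, they were the prohibitin gene Phb2 (0.05) and the DNA repair gene Nbn (0.06). Arrays within a group share their treatment, so these likenesses describe the groups more than single arrays.

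Further genes of fatty acid handling put these responses beside their neighbours. Of 13 other transport and binding proteins 9 were tested. In fasted wt 3 of the 9 were called higher and 0 lower (median difference -0.08, beside -0.02 for all genes, of which 8.23% were called higher and 13.2% lower). Mfsd2a, a transporter of lysophosphatidylcholine-bound fatty acids, rose 2.98-fold (1.58, SE 0.16, adjusted p = 0.000536), Slc27a1 (FATP1) rose by 0.70 (adjusted p = 0.00355) and Fabp12 by 0.57 (adjusted p = 0.0280). Scp2, the sterol carrier protein, had -0.25 (adjusted p = 0.265). In KO fasting 0 of the 9 were called, and Mfsd2a had 0.32 (adjusted p = 0.315). Of 7 acyl-CoA synthetases, which trap fatty acids as acyl-CoA, 3 were tested. Acsl6 rose by 0.84 in fasted wt (adjusted p = 0.0232), whereas Acsl4 (-0.51, adjusted p = 0.0862) and Acsl5 (0.05, adjusted p = 0.809) were not called. Acsl6 was dim, between 5.01 and 6.35 on all arrays.

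Of 17 genes that control lipoprotein lipase or take up lipoproteins 14 were tested, and in fasted wt 2 were higher and 2 lower (median -0.00), where 21.4% of all genes were called. Angptl4, a secreted inhibitor of lipoprotein lipase, rose 4.32-fold (2.11, SE 0.22, adjusted p = 0.000558). It had 11.01, 11.09 and 11.08 in fasted wt against 9.31 and 8.58 in fed wt, and 10.20, 10.64 and 10.83 in fasted KO against 10.52 and 10.42 in fed KO. Fasted and fed KO arrays overlapped, and all of them lay between the wt groups. Angptl8, a feeding-induced regulator of lipoprotein lipase, was 6.03-fold lower in fasted wt (-2.59, SE 0.50, adjusted p = 0.00678), with 8.86, 7.52 and 8.33 in fasted wt against 10.13 and 11.53 in fed wt. The difference was -1.89 without fed wt replicate 2 (adjusted p = 0.0508) and -3.29 without fed wt replicate 1 (adjusted p = 0.0103). Gpihbp1, which holds lipoprotein lipase on capillary endothelium, rose by 0.52 (adjusted p = 0.0285), and Sel1l, needed for lipase maturation, fell by 0.45 (adjusted p = 0.0198). In KO fasting 0 of the 14 were called, with 0.09 for Angptl4, -0.45 for Angptl8, 0.33 for Gpihbp1 and -0.44 for Sel1l.

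Of 14 transcriptional regulators 13 were tested, and in fasted wt 3 were higher and 2 lower (median 0.26), beside 8.23% and 13.2% of all genes. The pregnane X receptor gene Nr1i2 rose by 0.90 (adjusted p = 0.000690), Creb3l3, a partner of PPARα in fasting, by 0.52 (adjusted p = 0.00504) and Ppara itself by 0.63 (adjusted p = 0.0226). The liver X receptor gene Nr1h3 (LXRα), named after its value was seen, fell by 0.35 (adjusted p = 0.0341). Foxa2, a liver transcription factor, fell by 0.70 (adjusted p = 0.0249), and in KO fasting it had 0.40 (adjusted p = 0.285). In KO fasting 0 of the 13 were called (Ppara -0.14). Between fasted KO and fasted wt 1 was higher and 1 lower, where 11.1% of all genes were called, and both are named here after their values were seen. Pparg, the adipogenic receptor that drives Cd36 and Fabp4 in other settings, was higher (0.78, SE 0.17, adjusted p = 0.0218), with 8.51, 7.99 and 8.14 in fasted KO against 7.46, 7.25 and 7.58 in fasted wt. Ppard was lower (-0.81, adjusted p = 0.0454). Without fasted KO replicates 1 and 2 together, with 1 fasted KO array left, Pparg had 0.70 and Ppard -0.45. Omission of 1 array ended the call in 3 of 10 cases for Pparg and in 9 of 10 for Ppard. With Arntl minus Dbp as a covariate Pparg had 0.71 (adjusted p = 0.182) and Ppard -0.44 (adjusted p = 0.432).

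**Figure D4:**
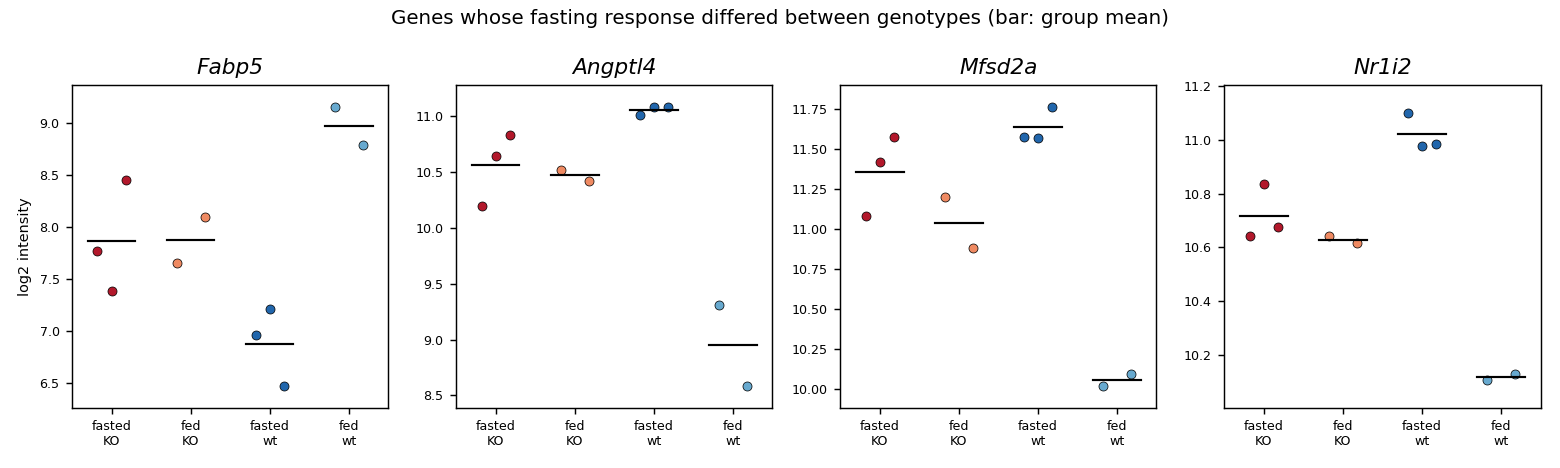
Log2 intensity (y axis, own scale per panel) of Fabp5, Angptl4, Mfsd2a and Nr1i2 on each array by group; points are arrays and bars are group means. In each panel the wt groups lie at the ends, fed wt highest for Fabp5 and lowest for the other 3 genes, and the KO group means lie between them.

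Over these lists the interaction called Angptl4 (-2.02, SE 0.32, adjusted p = 0.0277), Mfsd2a (-1.26, SE 0.23, adjusted p = 0.0341) and Nr1i2 (-0.81, SE 0.14, adjusted p = 0.0333), the opposite sign to Fabp5. Their differences between fed KO and fed wt were 1.52, 0.98 and 0.51, none of them called. Their wt fasting differences were 2.11, 1.58 and 0.90, all of them called. The corresponding values of Fabp5 were -1.10 (not called) and -2.09 (called). These comparisons share the fed wt arrays. Omission of 1 array ended the interaction call in 5 of 10 cases for Angptl4 and in 8 of 10 for Mfsd2a and for Nr1i2. Without fasted KO replicates 1 and 2 together, with 1 fasted KO array left, the interactions were -1.75 (Angptl4), -1.04 (Mfsd2a) and -0.86 (Nr1i2). Arntl minus Dbp as a covariate ended the interaction call of Mfsd2a (-1.12, adjusted p = 0.0541) and Nr1i2 (-0.84, adjusted p = 0.0513). Of the 13 list genes called in wt fasting, 5 held in all 10 omissions (Mfsd2a, Slc27a1, Angptl4, Nr1i2 and Creb3l3). The other 8 were lost in 1 to 5 omissions, each of a wt array, with an adjusted p between 0.0508 and 0.196. Arntl minus Dbp as a covariate ended 7 of the 13 calls, those of Fabp12, Acsl6, Angptl8, Sel1l, Gpihbp1 (then 0.33), Foxa2 and Nr1h3 (adjusted p between 0.0654 and 0.226).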

How the data were processed

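Liver RNA of 10 samples was measured on 1 array each. The deposited values are normalized intensities on a linear scale; RMA and Affymetrix Expression Console are named per the submitters' processing notes, while no version or build is given in the sources used here. On each array, between 228 and 489 intensities lay under 0.1, so the exact summary is uncertain. The log2 of each intensity was taken with no further scaling. Of 41345 probe sets 23521 had 1 gene symbol, 1814 several and 16010 none. Probe sets had to exceed their array's median (percentile 50) on 2 or more arrays, and each gene was represented by its brightest one, which left 13942 genes.

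Group means were fitted to all 10 arrays in limma 3.58.1 (R 4.3.3; prior degrees of freedom 3.63, residual 6), with 5 contrasts and Benjamini-Hochberg adjustment over all genes tested. Since no label says that arrays are separate animals, p values reflect the spread among these arrays, which may be technical. The number of arrays, 2 or 3 a group, limits the precision. The fit was tested on simulated data. The 10 genes, lists and tests were chosen with earlier results of these data known. Named were the 10 genes, Pml, Arntl, Dbp, the 2 most similar profiles of each called member and up to 4 genes of each list with the smallest p in wt fasting. Alternatives were scaling, filters, probe set choice, moderation, array weights, a replicate block, the groups of 1 contrast alone, the clock genes as a covariate and omission of arrays. Omission of fasted KO replicates 1 and 2 together left 1 fasted KO array, so calls that involve this group cannot be judged there. Stellate cell markers were also listed; Lrat of 5 was lower in wt fasting (-1.04).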

Additional observations from a re-analysis of the deposited data

Results flagged for a closer look

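The fasting response of Fabp5 differed between genotypes by the interaction term: the response in KO minus that in wt was 2.08 (adjusted p = 0.0472, limma), with 3 fasted and 2 fed arrays in each genotype. It was the only 1 of the 10 genes with such a call. The call was lost under 13 of 22 alternatives, among them the omission of any 1 of 8 arrays. Groups of 2 or 3 arrays are too small for a check of single outlying samples.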

How the results depend on the processing

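The count of the 10 genes called in wt fasting, 2 in the fit reported, was 1 with each array centred on its median, with the replicate block and with Arntl minus Dbp as a covariate (Fabp5 in each case), 4 with trend and robust moderation, and between 1 and 3 over the omissions of 1 array. Under the interaction the count of 1 went to 0 with no filter, with probe sets averaged per gene and with the replicate block (Fabp5 2.08, adjusted p = 0.0851). It was 0 or 1 over the omissions of 1 array. Between fasted KO and fasted wt the count of 0 was 1 with quantile normalization and with the stricter filter (70th percentile), and 0 or 1 over the omissions. In KO fasting and between fed KO and fed wt it was 0 under every alternative run. The replicate block changed no other call of the 10 genes. Of the 13 list genes called in wt fasting it ended 6 (Acsl6, Sel1l, Gpihbp1, Ppara, Foxa2 and Nr1h3, adjusted p between 0.0559 and 0.0869). It also ended the interaction call of Nr1i2 (adjusted p = 0.0604) and the call of Ppard between fasted KO and fasted wt (adjusted p = 0.07). The Pml difference lay between -1.75 and -1.52 over the omissions. Of 47 results of the 10 genes that were not called, 4 were called under some alternative, 14 times among 993 values, and 32 of those values changed sign. Another probe set of Fabp5, Slc27a2 or Lpl was tried after seeing the data. Replicate numbers recur in all groups. Deviations from the group means of same-numbered arrays correlated between -0.17 and 0.11 (over 0.1 in 1 of 13 pairs). Those of differently numbered arrays from different groups correlated between -0.15 and 0.17 (over 0.1 in 2 of 24 pairs). In groups of 2 arrays the deviations mirror each other, so these correlations cannot decide whether equal numbers mark a pairing or batch. Over all genes the count called in KO fasting, 234, was 0 with that block, 10 with no filter, 452 with the stricter filter, 504 with moderation by trend and robust fitting, 16 with the groups of the contrast alone, 149 with the clock covariate and 1 to 170 over the omissions. In wt fasting 2990 became 1283 with the covariate and 1326 to 3062 over the omissions. Between fasted KO and fasted wt 1549 became 654 with no filter, 850 with these groups alone and 54 with the covariate. Over the omissions of 1 array it was 435 to 1501. Between fed KO and fed wt 12 became 4 with no filter, 24 with trend and robust fitting, 0 with the block and with these groups alone, 1 with the covariate, 2 without fasted KO replicates 1 and 2, and 0 to 17 over the omissions. Under the interaction 294 became 4 with no filter, 501 with the stricter filter and 520 with trend and robust fitting. It was 137 with the block, 72 with the covariate and 2 to 360 over the omissions of 1 array. The cause was not tested.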
